A study of Mus musculus with 6 samples.

Results

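The genes described here encode caspases and RIP kinases, the proteases and kinases that carry out and control programmed cell death. The 8 genes of the group are Casp1, Casp2, Casp4, Casp6, Casp8, Casp9, Ripk1 and Ripk3. Their members are the probe sets whose platform gene symbol is exactly one of these names. A probe set is a group of short oligonucleotides read together as 1 value, and it can match more than 1 transcript. There were 8 such probe sets among the 20379 probe sets naming a single gene. They cover 7 of the 8 genes, out of 12393 genes in all, with 2 probe sets for Casp9 and 1 for each other gene. No probe set used here names Ripk1, which was not analysed here. Expression was measured on Affymetrix MOE430A arrays in CD11c+ cells, the integrin-bearing fraction that holds dendritic cells, taken from spleens by magnetic sorting. The mice were 8 weeks of age, untreated and on the C57BL/6J background in both groups. Arrays 1 to 3 of the first group came from wild-type mice and those of the second from Atg16L1 hypomorphic mice, with 3 arrays in each. A hypomorphic allele has reduced function, and the labels do not describe how this one was made or whether a replicate is a single animal. The p-values therefore measure the spread between these arrays.

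Caspases are cysteine proteases made as inactive precursors. Inflammatory caspases cleave gasdermin D, which ends in the lytic death called pyroptosis. Among them caspase-1 is switched on by inflammasomes and also cleaves the precursors of interleukin 1 beta and interleukin 18. Apical caspases start apoptosis from death receptors, from the mitochondrial apoptosome or from the PIDDosome, and effector caspases carry it out. RIPK1 and RIPK3 join through a shared interaction motif, and RIPK3 then phosphorylates MLKL to cause necroptosis, a death that caspase-8 holds in check. ATG16L1 is part of the enzyme that attaches LC3 to membranes in autophagy, a pathway also known to remove activated inflammasomes.

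Of the 8 probe sets, 2 were higher and 1 was lower in the hypomorph at an adjusted p under 0.05, and 5 did not pass. Ripk3 rose 1.47-fold, Casp1 rose 1.35-fold and Casp2 fell, being 1.27-fold lower. Genotypes were compared with limma over all 20379 probe sets with Benjamini-Hochberg adjustment, and 17.7% of them passed, 9.95% higher and 7.73% lower. The 3 arrays of each genotype did not overlap for 5 of the 8 members, 4 of them higher and 1 lower. Over all probe sets that share was 39.8%, 19.0% with the hypomorph higher and 20.8% with it lower. The median log2 difference of the members was 0.19, against -0.04 over all probe sets, and their median absolute difference was 0.26 against 0.17. Of the 8 members 7 lay above the median level of all probe sets, and these comparisons were not matched for level. With 8 members these counts are a description of the group.

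The cells carried the transcripts by which dendritic cells are known. Itgax, which encodes CD11c, had a mean log2 value of 10.32 ± 0.13 (SD, n = 3) across wild-type arrays and was lower, at 9.94 ± 0.07, across hypomorph arrays, while H2-Ab1, an MHC class II gene, stood at 13.30 and 13.38. Of 12 dendritic cell genes 2 were higher with limma, Ccr7 by 1.40 and Id2 by 0.64 on the log2 scale, 2 were lower, Itgax by 0.37 and Zbtb46 by 0.63, and 8 did not pass. Atg16l1 was lower in each hypomorph array, at 6.13, 5.84 and 6.11 against 7.05, 7.11 and 7.04 in wild type (log2 difference -1.04, SE 0.099, limma adjusted p = 0.00139). Of 20 genes of red pulp and marginal zone macrophages, some of which carry CD11c, 18 rose and 0 fell with limma (18 and 0 at an unadjusted p under 0.05). Their mean log2 value ran from 8.45 to 9.06 in wild type and from 10.28 to 10.38 in the hypomorph. Of 9 B cell genes 5 fell and 0 rose (6 and 0 at an unadjusted p under 0.05), with means from 8.32 to 8.75 and from 7.75 to 8.25. The lowest value in the table is 1.96, so no marker was listed at 0. The poly-A controls, which are bacterial RNAs put into each sample ahead of labelling, averaged 9.48 ± 0.50 in wild type and 7.69 ± 0.18 in the hypomorph, without overlap (exact permutation p = 0.1, the smallest that 3 against 3 arrays can give). The hybridization controls were lower by 1.02 and 18S rRNA by 0.67, and the excess of 3′ over 5′ signal, a measure of RNA quality, averaged 0.97 and 0.74 for Actb and 0.54 and 0.39 for Gapdh in wild type and hypomorph (exact permutation p = 0.1 for each). With the poly-A level as covariate 0 of the 20379 probe sets passed with limma (1932, or 9.48%, at an unadjusted p under 0.05). Atg16l1 itself was among those that did not pass. Because the poly-A level separates the genotypes without overlap, this fit can hardly tell genotype from control level. No conclusion is drawn from calls lost in it. These marker and control levels move with every genotype difference below, and their part in those differences was not tested. In such bulk samples, more cells of a type and more RNA per cell cannot be told apart.

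**Figure D1:**
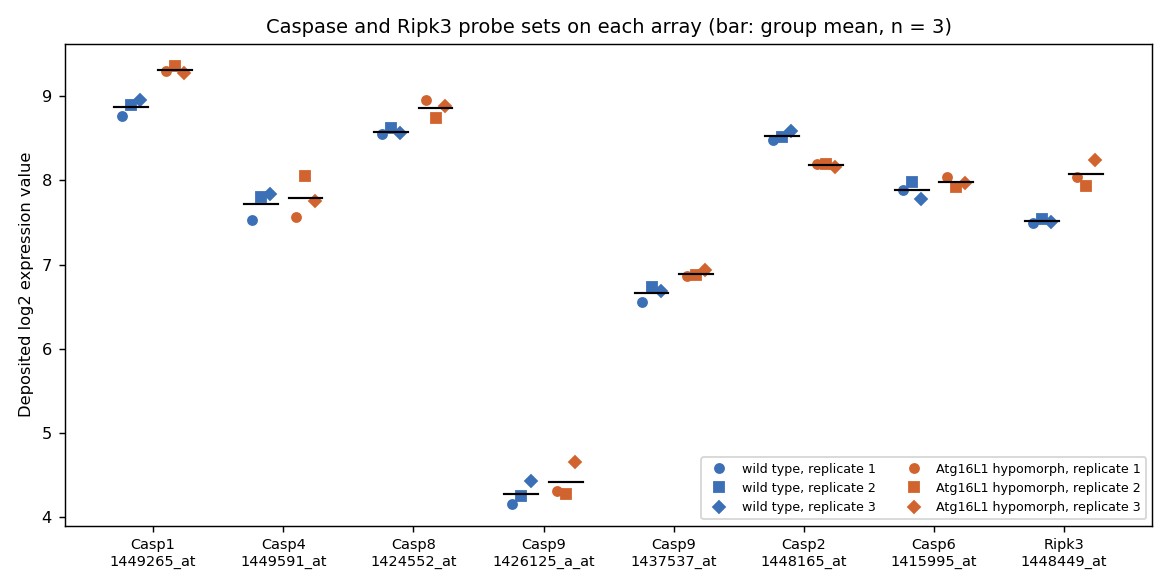
Deposited log2 expression values (vertical axis) of the 8 probe sets of caspase genes and Ripk3 (horizontal axis, with probe set names). Each symbol is 1 array, with circles, squares and diamonds for replicates 1, 2 and 3 of wild type (blue) and hypomorph (orange), and the bar is the group mean of 3 arrays. The orange symbols lie wholly above the blue ones for Casp1, Casp8, the brighter Casp9 probe set and Ripk3, and wholly below them for Casp2.

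Ripk3 encodes the kinase that starts necroptosis. Its probe set 1448449_at read 7.49, 7.54 and 7.51 in wild-type replicates 1, 2 and 3 and 8.04, 7.93 and 8.24 in hypomorph replicates 1, 2 and 3. The wild-type arrays lay within a narrow band (SD 0.0236) and the hypomorph arrays spread more widely (SD 0.153), but the lowest hypomorph array was 0.39 above the highest wild-type one. The log2 difference was 0.55 (SE 0.096, 95% interval 0.33 to 0.78, limma adjusted p = 0.0106), larger in absolute size than 89.3% of all probe sets. Ripk3 was the only member that passed the threshold when any 1 array was left out, with an adjusted p of 0.0432 at most (without hypomorph replicate 3). It did not pass without wild-type replicates 1 and 2, whose poly-A controls were brightest (0.56, adjusted p = 0.0634), or in a fit with the poly-A level of each array as covariate (0.50, adjusted p = 0.66).

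Casp1 encodes the protease that inflammasomes activate and that matures interleukin 1 beta and interleukin 18. Its probe set 1449265_at read 8.77, 8.90 and 8.95 in wild type and 9.30, 9.36 and 9.27 in the hypomorph. The hypomorph arrays were within 0.09 of each other, and all were higher than any wild-type array, by 0.32 at the nearest. The log2 difference was 0.43 (SE 0.081, 95% interval 0.24 to 0.63, limma adjusted p = 0.0138). Without hypomorph replicate 1, 2 or 3 it was 0.44, 0.41 and 0.46 with adjusted p-values of 0.0519, 0.0669 and 0.0555, so the call was lost while the size hardly moved. Over all probe sets the share called also dropped in those fits, to 7.92%, 7.01% and 6.28%. The call was also lost without wild-type replicates 1 and 2 (0.36, adjusted p = 0.0701). In the fit with the poly-A covariate it was 0.16 (adjusted p = 0.859).

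Casp4 encodes the other inflammatory caspase, mouse caspase-11, which binds bacterial lipopolysaccharide in the cytosol. In the RefSeq gene order Casp4 follows Casp1 on chromosome 9 with 0 genes between them. Its probe set 1449591_at read 7.53, 7.80 and 7.84 in wild type and 7.57, 8.05 and 7.76 in the hypomorph. The groups overlapped, and replicate 1 was the lowest array in each. The log2 difference was 0.07 (SE 0.14, 95% interval -0.27 to 0.40, limma adjusted p = 0.776), and the interval runs from 0.83 to 1.32 times the wild-type level. It took the opposite sign without wild-type replicate 1 (-0.03) or hypomorph replicate 2 (-0.06). Casp12, the third caspase gene of the same cluster, was dim on both of its probe sets. Its brighter one averaged 4.44 ± 0.25 (SD, n = 3) and 4.19 ± 0.08 (log2 difference -0.26, adjusted p = 0.224), and its dimmer one 3.80 ± 0.40 and 4.14 ± 0.07 (0.34, adjusted p = 0.265).

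The promoter windows of the 3 called genes and of Casp4 are printed because Casp1 and Ripk3 rose, Casp2 fell and Casp4, next to Casp1, did not pass. Each window is from RefSeq on the GRCm38.p6 build and runs from 250 bases before to 50 bases after a transcript start, 5′ to 3′ on the gene's strand. Capitals mark matches, on either strand, to any of 9 motifs, which were the interferon response and NF-kB consensus motifs, the STAT motif TTCNNNGAA, the AP-1 motif TGANTCA, the ETS motif GGAAGT, the PU.1 motif GAGGAAGT (which includes the ETS motif), the E-box CACGTG, the GC box GGGCGG and the TATA motif TATAAA.
Casp1 (chr9:5298267-5298566, plus strand): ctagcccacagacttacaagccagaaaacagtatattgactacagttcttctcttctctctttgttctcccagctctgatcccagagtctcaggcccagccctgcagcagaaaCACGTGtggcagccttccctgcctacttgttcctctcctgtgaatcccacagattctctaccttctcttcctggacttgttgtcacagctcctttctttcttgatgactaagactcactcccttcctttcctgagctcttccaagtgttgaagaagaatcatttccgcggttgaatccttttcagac
Ripk3 (chr14:55788808-55789107, minus strand): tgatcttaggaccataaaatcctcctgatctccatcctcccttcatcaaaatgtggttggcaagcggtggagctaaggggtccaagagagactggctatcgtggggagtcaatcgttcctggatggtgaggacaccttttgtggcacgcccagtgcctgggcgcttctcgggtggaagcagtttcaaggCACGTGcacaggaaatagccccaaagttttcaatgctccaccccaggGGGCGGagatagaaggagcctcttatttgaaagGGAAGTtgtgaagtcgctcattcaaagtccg
Casp2 (chr6:42264735-42265034, plus strand): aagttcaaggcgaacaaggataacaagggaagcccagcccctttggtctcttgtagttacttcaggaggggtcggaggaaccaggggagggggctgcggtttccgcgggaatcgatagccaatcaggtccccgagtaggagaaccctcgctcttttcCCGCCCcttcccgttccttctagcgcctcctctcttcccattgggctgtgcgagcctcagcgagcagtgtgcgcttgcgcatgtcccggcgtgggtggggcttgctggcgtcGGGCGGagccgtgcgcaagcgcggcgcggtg
Casp4 (chr9:5308599-5308898, plus strand): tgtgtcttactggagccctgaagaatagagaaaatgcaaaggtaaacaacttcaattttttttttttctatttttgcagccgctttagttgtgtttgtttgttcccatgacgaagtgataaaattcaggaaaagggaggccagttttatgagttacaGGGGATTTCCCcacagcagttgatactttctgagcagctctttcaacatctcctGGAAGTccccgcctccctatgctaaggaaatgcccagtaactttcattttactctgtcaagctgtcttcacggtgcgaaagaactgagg

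The windows of Casp1 and Ripk3 each hold a CACGTG, starting 137 and 61 bases before the start, a motif found in 7.15% of all 32851 windows. The printed Casp4 window holds 2 overlapping matches to the NF-kB consensus, starting 93 and 92 bases before its start. Of all windows 4.51% hold any. Another Casp4 window, with a later start, holds the same matches. The ETS motif GGAAGT lies in the windows of Ripk3 (19 bases after the start) and Casp4 (39 bases before it). It is found in 23.8% of all windows. Casp2 holds 2 GC boxes and 63.7% G and C, against 48.0% in Casp1, 42.0% in Casp4, 52.7% in Ripk3 and a median of 52.7% over all windows. The Ripk3 window holds 1 GC box too, starting 14 bases before its start, and GC boxes are in 35.7% of windows. A match says only that these letters are present.

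Casp8 encodes the apical caspase of death receptors, which also cleaves RIPK1 and RIPK3. Its probe set 1424552_at read 8.55, 8.62 and 8.56 in wild type and 8.95, 8.74 and 8.88 in the hypomorph. Each hypomorph array was higher than each wild-type array, by 0.11 at the nearest. The log2 difference was 0.28 (SE 0.085, 95% interval 0.08 to 0.48), which did not pass (limma adjusted p = 0.0634). It was the member nearest to the threshold on the outer side, with Casp2 nearest on the inner side. It passed when probe sets below the lower quartile or the median of level were left out (adjusted p = 0.0468 and 0.0274) and with trend and robust fitting (adjusted p = 0.0298).

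Casp9 encodes the apical caspase of the apoptosome, which forms on cytochrome c released from mitochondria. Its brighter probe set 1437537_at read 6.55, 6.73 and 6.69 in wild type and 6.86, 6.88 and 6.94 in the hypomorph, without overlap. This gave a log2 difference of 0.23 (SE 0.082, 95% interval 0.04 to 0.43, limma adjusted p = 0.0933), which passed only when probe sets below the median level were left out (adjusted p = 0.0409). Its dimmer probe set 1426125_a_at read 4.16, 4.25 and 4.43 against 4.31, 4.28 and 4.66, and these groups overlapped (log2 difference 0.14, SE 0.13, adjusted p = 0.507). The gap between both probe sets on the same array averaged 2.38 in wild type and 2.48 in the hypomorph, and did not differ beyond the spread (exact permutation p = 0.4).

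Casp2 encodes the caspase activated in the PIDDosome, and was the only member lower in the hypomorph. Its probe set 1448165_at read 8.48, 8.51 and 8.59 in wild type and 8.20, 8.19 and 8.16 in the hypomorph. All hypomorph arrays were lower than any wild-type array, by 0.28 at the nearest, and lay closer together than the hypomorph arrays of any other member (SD 0.0215). The log2 difference was -0.34 (SE 0.074, 95% interval -0.52 to -0.17, limma adjusted p = 0.0214). The call was lost without wild-type replicate 3 (-0.31, adjusted p = 0.0521) and without hypomorph replicate 1, 2 or 3 (adjusted p = 0.0681, 0.0841 and 0.0942). In the fit with the poly-A covariate it was -0.51 (adjusted p = 0.538).

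Casp6 encodes an effector caspase that cleaves nuclear lamins, and it did not pass. Its probe set 1415995_at read 7.88, 7.98 and 7.78 in wild type and 8.04, 7.92 and 7.97 in the hypomorph, with overlapping groups. This gave a log2 difference of 0.10 (SE 0.084, limma adjusted p = 0.459), with a 95% interval of -0.10 to 0.30.

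**Figure D2:**
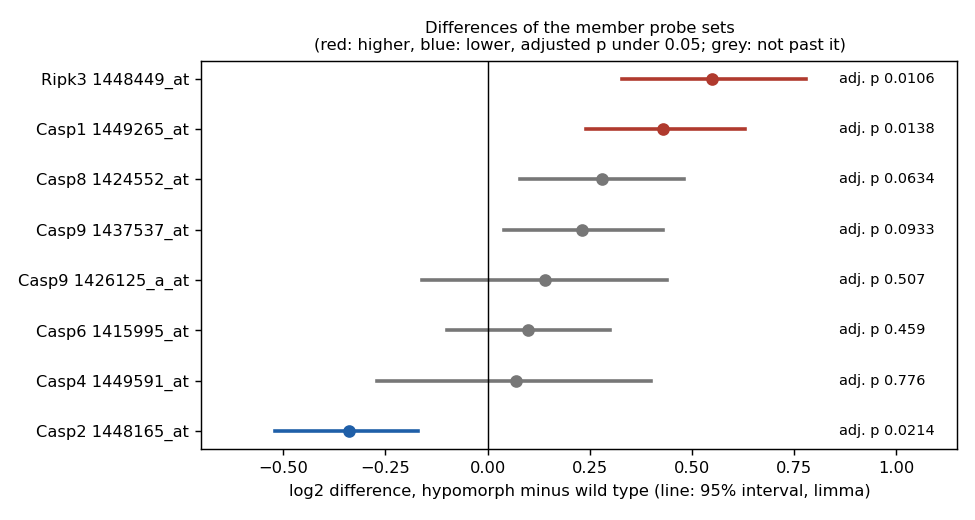
Log2 difference between the genotypes (horizontal axis, hypomorph minus wild type) of each member probe set with its 95% interval from limma (line), and its adjusted p at the right. Red marks the probe sets of Ripk3 and Casp1, which were higher, blue that of Casp2, which was lower, and grey the 5 that did not pass.

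**Figure D3:**
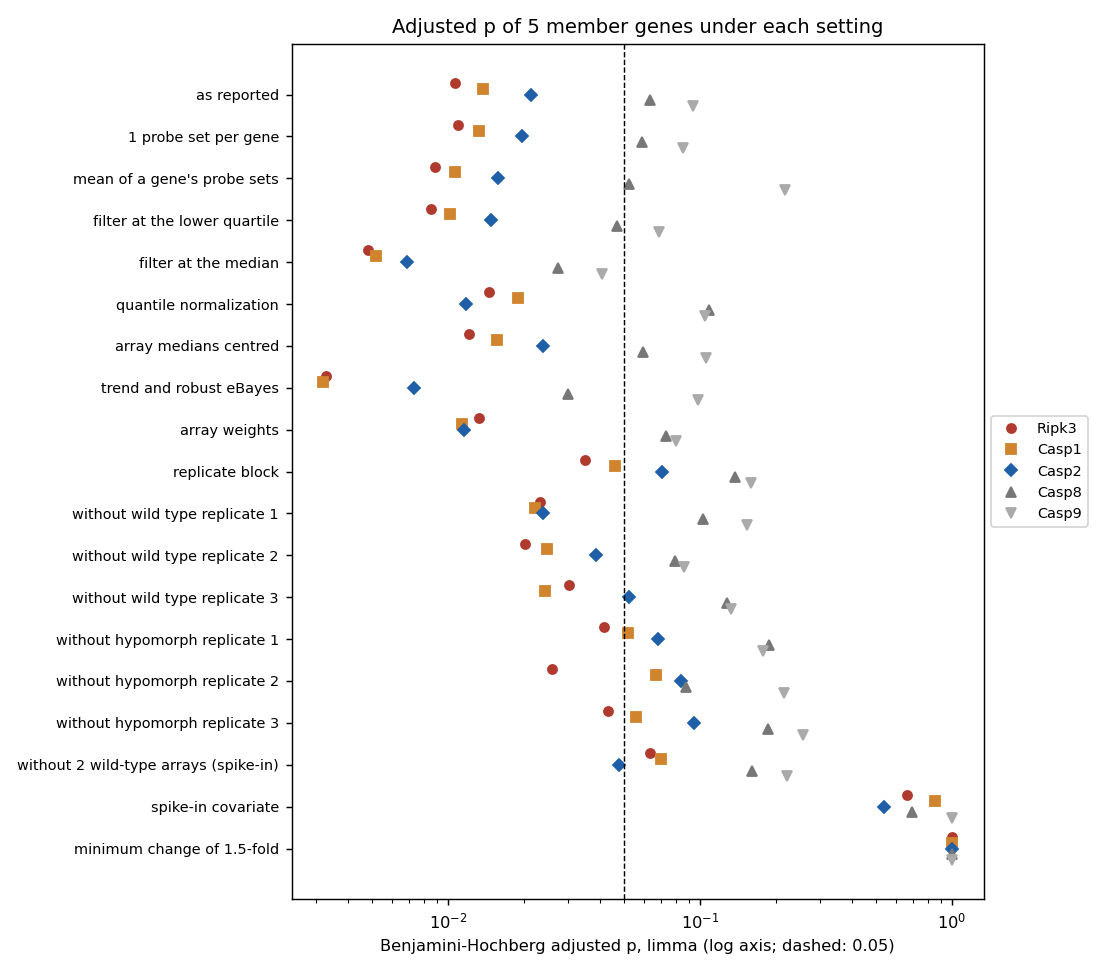
Adjusted p (horizontal log axis) of 5 member genes, each by its brightest probe set, under the reported setting and 18 alternatives (vertical axis), with the threshold of 0.05 dashed. Ripk3 lies left of the line in every fit without 1 array, Casp1 crosses it without any 1 hypomorph array, and with the poly-A covariate or a minimum change of 1.5-fold all 5 lie to its right.

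Among all genes, those whose centred values ran closest to a called member over the 6 arrays were named by their root mean square difference in log2 units. For Casp1 they were Vma21, an assembly factor of the vacuolar ATPase (0.0194), and Psmd10, a proteasome assembly chaperone (0.0223). For Ripk3 they were the immunoglobulin superfamily gene Igsf8 (0.0522) and Ampd3, an AMP deaminase (0.0623). For Casp2 they were Cdc23, a subunit of the anaphase-promoting complex (0.0217), and the protein kinase gene Prkd3 (0.0219). All 6 arrays fall into 2 genotypes, and a gene with a genotype difference of like size has a small value here.

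Genes that act with the members were described by role, each by its brightest probe set. Of 88 such genes 70 could be measured, of which 10 were higher, 6 lower and 54 not past the threshold. Over all 12393 genes, 18% passed, 9.65% higher and 8.32% lower. The median log2 difference of the 70 was -0.01 and that of all genes -0.05. Without hypomorph replicate 1, 2 or 3 the number past the threshold was 9, 6 and 5, and without wild-type replicate 3 it was 10.

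Inflammasome and pyroptosis genes held most of the increases, with 6 of 16 higher and 1 lower and a median of 0.26. Gsdme, a gasdermin opened by effector caspases, rose 3.59-fold (6.17, 6.44 and 6.62 in wild type against 8.31, 8.21 and 8.26; adjusted p = 0.000949) by its brighter probe set. Its other probe set was dim and did not pass (3.76 ± 0.35 and 3.89 ± 0.10, adjusted p = 0.629). Il18, a substrate of caspase-1, rose 2.04-fold (9.88, 10.18 and 9.82 against 11.02, 10.96 and 10.98; adjusted p = 0.00185). Naip2, the sensor of bacterial secretion systems in the NLRC4 inflammasome, rose 1.74-fold (6.95, 7.13 and 6.99 against 7.87, 7.75 and 7.85; adjusted p = 0.00195). In each of these 3 genes every hypomorph array exceeded every wild-type array, and each call was kept when any 1 array was left out.

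The inflammasome sensor gene Nlrp3 rose less, 1.28-fold, from 7.41 ± 0.04 (SD, n = 3) to 7.76 ± 0.06 (limma adjusted p = 0.0202), a call lost without any 1 hypomorph array (adjusted p from 0.0591 to 0.0922). Pycard, which encodes the adaptor ASC that links sensors to caspase-1, was at 9.93 ± 0.24 and 9.84 ± 0.04 and did not pass (adjusted p = 0.663). Il1b, another substrate of caspase-1, spread widely in wild type, at 11.03, 12.08 and 11.61, and was at 12.06, 11.89 and 11.93 in the hypomorph (log2 difference 0.39, adjusted p = 0.312). It passed without wild-type replicate 2, the highest of all 6 arrays (0.64, adjusted p = 0.0486). Named after their values were seen, Ninj1, which ruptures the membrane in lytic death, rose 2.0-fold, Gbp2, a guanylate-binding protein gene, rose 1.78-fold and Mefv, the gene of the sensor pyrin, was 1.68-fold lower (adjusted p = 0.0374). The call of Mefv was lost when wild-type replicate 1, or a single one of the hypomorph arrays, was left out. The number higher was 5, 4 and 4 without hypomorph replicate 1, 2 and 3. Macrophage marker genes were higher in the same hypomorph arrays, by 1.57 on average.

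Death receptor genes and the genes of RIPK1 complexes split, with 3 of 22 higher and 2 lower and a median of 0.03. Tnfrsf21, which encodes death receptor 6, rose 2.94-fold (7.27, 7.73 and 7.62 in wild type against 9.11, 9.04 and 9.13; adjusted p = 0.0011), and its other probe set rose too (log2 difference 1.08, adjusted p = 0.00165). The TNF receptor genes Tnfrsf1a and Tnfrsf1b rose 1.36-fold and 1.47-fold (adjusted p = 0.0209 and 0.0285). The dimmer probe set of Tnfrsf1b did not pass (log2 difference 0.21, limma adjusted p = 0.307). The call of Tnfrsf1b was lost without any 1 hypomorph array, and that of Tnfrsf1a without hypomorph replicate 1 or 3 or wild-type replicate 3. Named after their values were seen, the death receptor gene Tnfrsf25 was 1.51-fold lower and dim (4.80 ± 0.15 and 4.20 ± 0.24), and Traf2, an adaptor of TNF receptors, was 1.26-fold lower. Fadd, the adaptor that brings caspase-8 to receptors, was higher in every hypomorph array (6.30, 6.22 and 6.40 against 6.46, 6.55 and 6.55) but did not pass (adjusted p = 0.117). Cflar, the caspase-8 inhibitor gene that lies near Casp8 with 1 gene between them, had a log2 difference of 0.21 by its brightest probe set (adjusted p = 0.195). Of its 4 probe sets a dimmer one, noted after its value was seen, was 1.13 higher and passed (limma adjusted p = 0.00792). The others did not pass. The number higher was 1 without hypomorph replicate 1 or 3. Both decreases were lost when wild-type replicate 3 was left out, and likewise for hypomorph replicate 2 or 3.

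Genes of the apoptosome and of caspase inhibitors showed 2 decreases among 11, 0 increases with limma (1 at an unadjusted p under 0.05) and a median of -0.03. The mitochondrial chaperone gene Hspd1 was 2.06-fold lower (10.28, 11.10 and 11.22 in wild type against 9.89, 9.79 and 9.80; adjusted p = 0.0244), and Htra2, a mitochondrial protease that antagonises caspase inhibitors, was 1.30-fold lower (adjusted p = 0.0359). Both calls were lost without any 1 hypomorph array. Htra2 was also lost without wild-type replicate 1 or 2 and Hspd1 without replicate 3. The dimmer probe set of Htra2 did not pass (log2 difference -0.24, limma adjusted p = 0.105). Apaf1, the scaffold of the apoptosome, was at 8.38 ± 0.07 (SD, n = 3) and 8.35 ± 0.01 (log2 difference -0.03, 95% interval -0.21 to 0.15, limma adjusted p = 0.821). Xiap, an inhibitor of caspases, had its brightest probe set higher by 0.25 without passing (adjusted p = 0.0695).

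In the PIDDosome list, 1 of 4 genes rose and 0 fell with limma (1 fell at an unadjusted p under 0.05). The riser was Cradd, the adaptor that binds caspase-2, which was 1.28-fold higher (5.95, 6.03 and 6.00 against 6.27, 6.48 and 6.28; adjusted p = 0.0326) while Casp2 itself was lower. Its call was lost without any 1 array other than wild-type replicate 2. Pidd1, the scaffold of the complex, did not pass (5.17 ± 0.24 and 5.03 ± 0.14, SD, n = 3, limma adjusted p = 0.541). Of 9 genes for substrates of effector caspases, 1 fell and 0 rose with limma (1 at an unadjusted p under 0.05). It was Acin1, a factor of chromatin condensation in apoptosis (1.37-fold lower, adjusted p = 0.015), whose call was lost without hypomorph replicate 2 or 3.

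Of the 6 other RIP kinase and necroptosis genes measured, 0 passed with limma, and 1 had an unadjusted p under 0.05. That was Ripk4, a kinase of skin development, named after its value was seen (3.34 ± 0.09 and 3.12 ± 0.08, adjusted p = 0.124). Zbp1, the nucleic acid sensor that recruits RIPK3, was at 7.0, 6.71 and 6.96 in wild type and 6.80, 7.34 and 7.20 in the hypomorph (log2 difference 0.22, adjusted p = 0.368). Mlkl, the substrate through which RIPK3 kills cells, and the gasdermin gene Gsdmd were not analysed here. Of the remaining caspase genes, Casp12 and Casp14, neither passed with limma, and 0 had an unadjusted p under 0.05. The poly-A control signal was 1.79 lower and the macrophage genes 1.57 higher, both on the log2 scale, in the same hypomorph arrays, and their part in the calls of these lists was not tested.

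**Figure D4:**
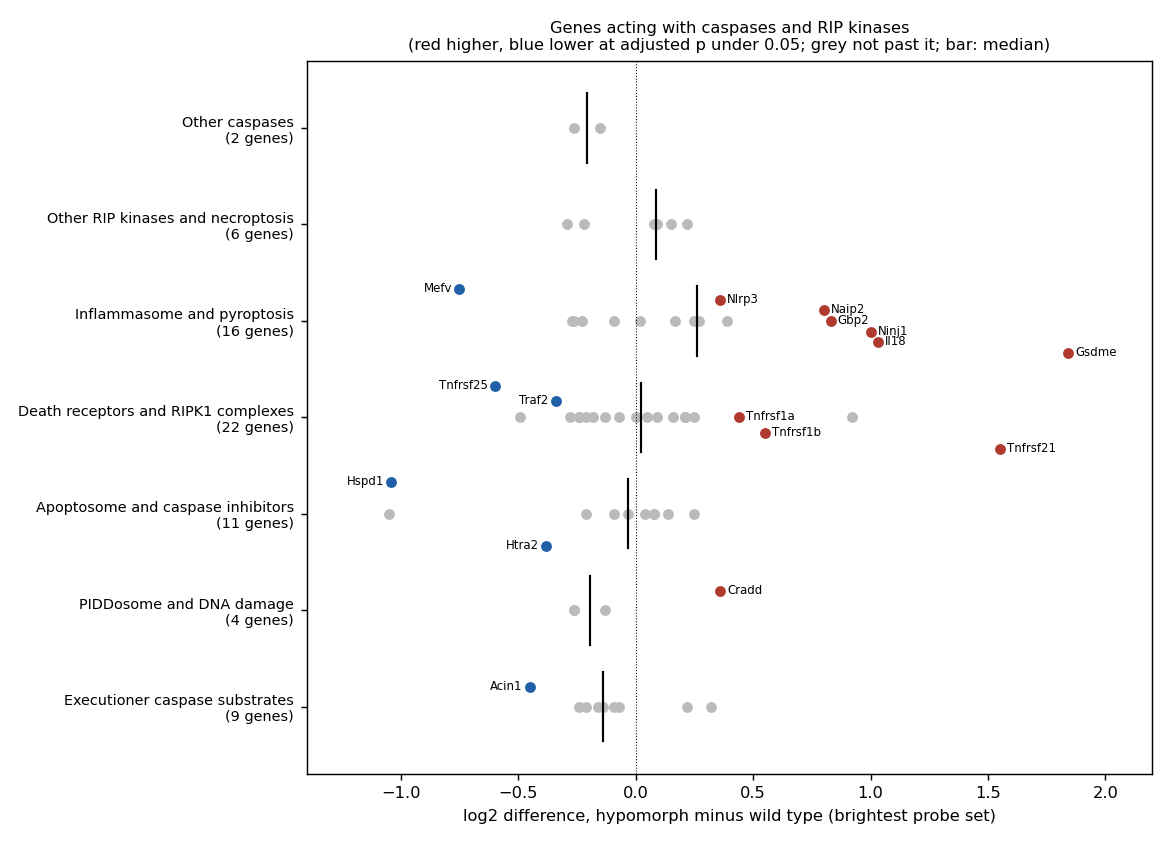
Log2 difference between the genotypes (horizontal axis, hypomorph minus wild type) of the genes acting with caspases and RIP kinases, by role (vertical axis), each point being the brightest probe set of 1 gene and each bar the median of a list. Red genes were higher and blue genes lower at an adjusted p under 0.05, and grey ones did not pass, with Gsdme at 1.84 and Tnfrsf21 at 1.55 farthest to the right.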

How the data were processed

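The deposited log2 values, 1 per probe set and array, were made by the authors with Affymetrix Power Tools, per the submitters' processing notes. Its version, background correction and summarization were not given in the sources read. The log2 scale was inferred from the range of 1.96 to 14.33, and normalization between arrays from their close quartiles, so fold changes rest on that inference. The title of wild-type replicate 1 begins its array code with another number, and that of replicate 3 has another array name. The labels do not say what either stands for. Wild-type replicate 1 also had the brightest poly-A controls, at 9.96. With 3 arrays per group, their number limits the precision.

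Of 22690 probe sets, 64 controls and 1 without values were set aside, and 20379 named 1 gene in the platform annotation, 691 several and 1555 none. limma 3.58.1 in R 4.3.3 (lmFit, eBayes, two-sided, no covariate) compared the genotypes over these 20379, with Benjamini-Hochberg adjustment and a threshold of 0.05, and was tested on simulated data. A gene in a list is given by its probe set of highest mean. Python 3.11.15, pandas 2.3.3 and matplotlib 3.10.9 made the tables and plots.

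The members and lists were chosen with earlier results of these data known, and the motifs after the calls were known. Named genes are all members, 14 genes fixed by name, up to 3 genes of smallest p in each list and 2 nearest profiles of each called member. The labels do not say that replicate numbers pair the arrays, so no block was used. Alternatives were 1 probe set or the mean per gene, filters at the lower quartile and median, quantile normalization, median centring, eBayes with trend and robust options, weights per array, a block on replicate number, the poly-A level as covariate, testing against 1.5-fold, and each array omitted in turn. The fit without wild-type replicates 1 and 2, whose poly-A controls were brightest, was chosen after seeing the data.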

Additional observations from a re-analysis of the deposited data

How the results depend on the processing

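With 3 arrays per group, most calls rest on small margins. The poly-A level separates the genotypes, so the fit with it as covariate can hardly tell genotype from control level. Of the 8 member probe sets, 3 were called as reported and 1 to 3 when an array was left out. Over all probe sets the share called ran from 6.28% to 17.4% with an array left out. The filter at the median left 7 member probe sets, of which 5 were called. It also raised the calls of pathway genes, to 22 of 58, and its share over all probe sets is not given here. With the poly-A covariate or the 1.5-fold minimum 0 members were called by limma (0 at an unadjusted p under 0.05 in each). By gene the numbers were the same, 3, 1 to 3, 5, 0 and 0, out of 7. The 16 called pathway genes became 5 to 20 with an array left out. They became 2 with the 1.5-fold minimum and 0 with the covariate by limma (9 at an unadjusted p under 0.05). With the replicate block 10 pathway genes were called, and Casp2 (adjusted p = 0.0703) was lost among the members. The block was not used because the labels do not say that replicate numbers pair the arrays. Deviations of same-numbered arrays correlated at 0.159, 0.0188 and 0.0997, and not every array correlated best with its own number.

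With single arrays left out Casp4 ran from -0.06 to 0.18, Pycard from -0.21 to 0.02 and Pidd1 from -0.22 to 0.0008. Signs changed for values that had mostly not passed. With the covariate these were Casp4 (-0.61), Casp9 (-0.40 and -0.001), Zbp1 (-0.06), Pycard (0.07), Fadd (-0.03), Apaf1 (0.01), Pidd1 (0.36), Il1b (-0.31), and the called Htra2 (0.13) and Tnfrsf1b (-0.03). With probe sets averaged by gene they were Casp12 (0.04), Pycard (0.003), Apaf1 (0.03) and Xiap (-0.002). Without wild-type replicate 1 they were Casp4 (-0.03), Pycard (0.02) and Pidd1 (0.0008), and without hypomorph replicate 2 Casp4 (-0.06). Without wild-type replicates 1 and 2, a fit chosen after seeing the data, they were Casp4 (-0.05), the dimmer Casp9 probe set (-0.01) and Pidd1 (0.03). The cause was not tested.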

Other observations

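Several genes of the death pathways had probe sets that passed and others that did not, and these were noted after their values were seen. Cflar has 4 probe sets. One that is dimmer than the brightest was 1.13 higher on the log2 scale in the hypomorph, at 7.02 ± 0.35 (SD, n = 3) and 8.15 ± 0.16 (limma adjusted p = 0.00792), while the other 3 did not pass. For Xiap, 1 of 6 probe sets passed and was lower, at 3.72 ± 0.14 and 3.18 ± 0.08 (-0.54, adjusted p = 0.0121), whereas the brightest stood higher without passing. The dimmer probe set of Txnip, a thioredoxin-binding protein gene, was higher (6.40 ± 0.10 and 6.98 ± 0.14, adjusted p = 0.0108). Its brighter one did not pass (log2 difference 0.17, adjusted p = 0.382). Lmnb1, a nuclear lamin gene, was higher by its dimmer probe set (log2 difference 0.50, adjusted p = 0.042). Its brighter one did not pass (-0.09, adjusted p = 0.513). Both probe sets of Fasl, the Fas ligand gene, had all hypomorph arrays above all wild-type arrays. The dimmer one passed (log2 difference 0.69, adjusted p = 0.0119), and the brighter one, with the larger difference of 0.92 and a wider spread in wild type (SD 0.721), did not (adjusted p = 0.1). Probe sets of a gene can report different transcripts, which was not tested here.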
